A study of Mus musculus with 12 samples.

Results

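Epas1, Angpt2 and Thbd are genes of the blood vessel wall, taken here by gene name from the deposited tables of mammary tumors treated with an RXR agonist. All 3 were among the 1589 genes listed for V-125 against control, and 2 of them, Epas1 and Angpt2, were among the 1784 genes listed for bexarotene against control. Together the tables name 2876 genes. RNA was sequenced from 12 tumors of female MMTV-neu mice, in which the MMTV promoter drives the Neu (HER2) oncogene in mammary epithelium. Control diet, V-125 diet and bexarotene diet were represented by 4 tumors each, and either drug was mixed into chow at 100 mg per kg and fed for 10 days. Both drugs are rexinoids, which bind and activate the retinoid X receptor (RXR), and the control chow carried the ethanol and coconut oil vehicle alone. Frozen tumor pieces were homogenized, so the RNA came from cancer cells and stroma together, and fewer cells of a type cannot be told apart from less RNA per cell.

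Epas1 encodes HIF-2 alpha, a transcription factor that is degraded when oxygen is present, accumulates in hypoxia and is abundant in endothelial cells. Angpt2 encodes angiopoietin-2, which endothelial cells at growing or regressing vessels release and which generally antagonizes the receptor Tie2 (Tek), opposing the stabilizing ligand angiopoietin-1. Thbd encodes thrombomodulin, an endothelial surface receptor that binds thrombin and turns it from clotting to the activation of protein C. None of the 3 is exclusive to endothelium, since Epas1 is also expressed in adipocytes and some epithelia, and Thbd in some myeloid cells.

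The tables place Epas1 (ENSMUSG00000024140) on chromosome 17 from 86753907 to 86833410 on the plus strand, Angpt2 (ENSMUSG00000031465) on chromosome 8 from 18690263 to 18741562 on the minus strand and Thbd (ENSMUSG00000074743) on chromosome 2 from 148404466 to 148408188 on the minus strand. All are protein-coding. In GENCODE M21 on GRCm38, the coordinates of Angpt2 and Thbd are identical and Epas1 starts at 86753700. The longest coding transcript of Epas1 has 16 exons and 874 codons, and that of Angpt2 has 9 exons and 496 codons. Thbd is a gene of 1 exon with 577 codons.

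The V-125-treated tumors had 17070644 to 19098630 reads assigned to genes and the control tumors 15571690 to 22574865. Control replicates 3 and 4 were the deepest libraries, at 22574865 and 21171129 reads, and control replicates 1 and 2 the shallowest. Every listed gene had been selected by the authors at an unadjusted p-value under 0.05. Presence in a table is therefore itself a result of the same comparison, and tests on listed genes are not independent of it. For bexarotene only the authors' group means were used, so no test involves them.

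Epas1 was the most abundant of the 3 and was higher in every V-125-treated tumor than in any control tumor. Its normalized count, the read count divided by 1 size factor per tumor, was 1691, 1562, 1661 and 1539.7 in the 4 V-125-treated tumors (replicates 1 to 4, in this order throughout). The control tumors had 786, 1049.6, 876 and 1309. The groups did not overlap, and the gap lay between control replicate 4 and V-125 replicate 4. Mean values of 1613 ± 74.1 (V-125, SD, n = 4) and 1005 ± 230.0 (control, SD, n = 4) differed 1.61-fold. The two-sided exact permutation p was 0.0286, which is the lowest that 4 tumors against 4 can reach. V-125-treated tumors also lay close together, with an SD of 4.59% of their mean against 22.9% in control tumors. In edgeR's quasi-likelihood test the log2 fold change of Epas1 was 0.68 (standard error 0.18). Its Benjamini-Hochberg adjusted p was 0.50 over 15310 genes, the number that the authors' adjustment was inferred to cover.

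Angpt2 went the other way. Its normalized count was 83.8, 66.5, 59.6 and 38.1 in V-125-treated tumors. In control tumors it was 93.4, 114, 164 and 242. Every V-125-treated tumor was below every control tumor, with the narrowest gap between V-125 replicate 1 and control replicate 1. Means of 62.0 ± 18.9 (SD, n = 4) and 153 ± 65.8 (SD, n = 4) gave a ratio of 0.404 (two-sided exact permutation p = 0.0286). The log2 fold change from edgeR was −1.31 (standard error 0.38, adjusted p = 0.609). Both control tumors with the highest Angpt2 were also those with the deepest libraries. When control replicates 3 and 4 were left out, a choice made after seeing the data, the log2 fold change of Angpt2 was −0.74 with an unadjusted p = 0.122 in edgeR, and that of Epas1 was 0.81. Groups that are separate with all tumors stay separate when some are left out, so separation gives no information there. The part of depth in the Angpt2 difference was not tested. Before scaling, the groups of both genes overlapped. Angpt2 had 82 reads in V-125 replicate 1 and 81 in control replicate 1, and Epas1 had 1456 in V-125 replicate 4 and 1533 in control replicate 4.

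Thbd was higher on average with V-125, but its groups overlapped. Normalized counts of Thbd were 204, 208, 94.3 and 113 in V-125-treated tumors. Those of control tumors were 92.2, 95.9, 46.3 and 127. V-125 replicates 1 and 2 lay above all control tumors, while replicates 3 and 4 lay within the control range. The means were 155 ± 59.7 (SD, n = 4) and 90.4 ± 33.3 (SD, n = 4), a 1.71-fold difference that did not pass the test (two-sided exact permutation p = 0.171). The fitted log2 fold change from edgeR was 0.78 (standard error 0.39, adjusted p = 0.931).

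**Figure D1:**
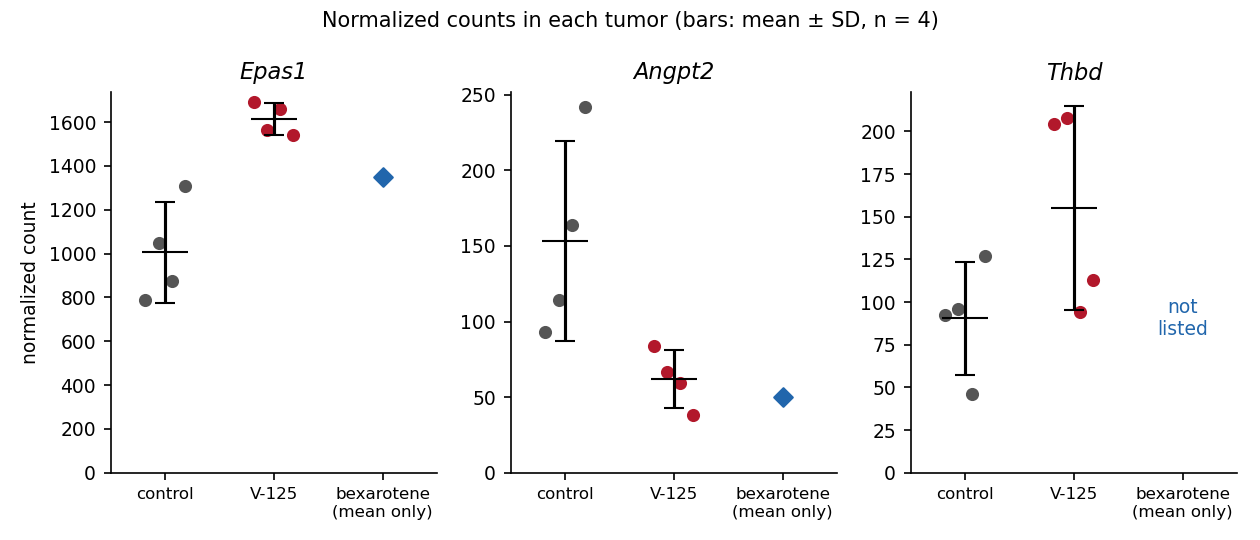
Normalized counts of Epas1, Angpt2 and Thbd (vertical axes) in 4 control and 4 V-125-treated tumors, with 1 point per tumor and black bars for the mean ± SD. Blue diamonds are the authors' bexarotene means, which carry no error here. Epas1 groups are separated upward and Angpt2 groups downward, and Thbd groups overlap between 94.3 and 127.

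Read against the whole V-125 table, separation of the groups was common. Of the 3 genes, 1 lay above control in every V-125-treated tumor and 1 below, while 21.1% of all listed genes lay wholly above and 17.6% wholly below. The edgeR unadjusted p-value was under 0.05 for 2 of the 3, Epas1 and Angpt2, against 71.5% of the 1333 genes fitted. At an adjusted p-value under 0.05 edgeR called 0% of these genes, with 953 under 0.05 unadjusted, and limma-voom also called 0. DESeq2 called 130 of the 1589 listed genes, and its adjusted p-values were 0.0561 for Epas1, 0.0883 for Angpt2 and 0.618 for Thbd.

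Levels of different genes were compared as FPKM, which divides by gene length and by the reads counted on genes. Epas1 had 10.5 ± 2.38 FPKM in control tumors and 16.8 ± 0.847 with V-125 (SD, n = 4 each), above both other genes in all 8 tumors. Angpt2 and Thbd exchanged places below it. In control tumors Angpt2 was at 2.30 ± 0.984 FPKM and Thbd at 1.35 ± 0.495 (SD, n = 4 each), with Angpt2 above Thbd in all 4, although in control replicate 1 the difference was only 1.41 against 1.38. With V-125 Thbd was at 2.31 ± 0.894 FPKM and Angpt2 at 0.932 ± 0.289 (SD, n = 4 each), and Thbd was the higher in all 4. The ratio of Thbd to Angpt2 in FPKM was 2.42, 3.10, 1.57 and 2.95 with V-125. Control tumors had 0.979, 0.831, 0.280 and 0.522. Such a ratio is formed within a tumor and does not depend on library scaling, and its groups did not overlap. Thbd and Angpt2 had both been selected on their difference, in opposite directions. That selection favors separation of their ratio, which is therefore a description only. The ratio of Epas1 to Angpt2 was 19.5 ± 6.17 with V-125 and 4.93 ± 1.39 in control tumors (SD, n = 4 each). Its groups had to be separate, because Epas1 was higher and Angpt2 lower in every V-125-treated tumor. The ratio of Epas1 to Thbd was 8.24 ± 3.34 and 8.53 ± 3.23 (SD, n = 4 each), with overlapping groups.

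**Figure D2:**
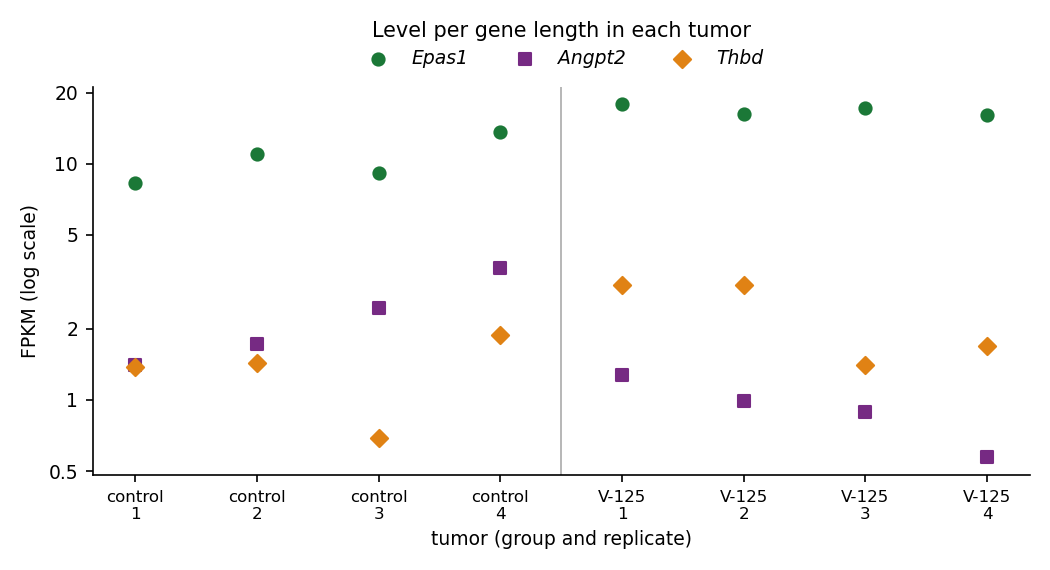
FPKM on a log scale (vertical axis) in each of the 8 tumors (horizontal axis), with 1 symbol per gene. Epas1 is on top throughout at 8.25 to 17.8 FPKM, and Thbd lies below Angpt2 in the 4 control tumors and above it in the 4 V-125-treated tumors.

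With bexarotene, the authors' mean normalized count of Epas1 was 1348 against 999 in control tumors, a ratio of 1.35. The tables were normalized separately, and the control mean of a gene differed between them by a ratio of 0.992 to 0.997. The bexarotene mean of Epas1 lay above the highest control tumor and below the lowest V-125-treated tumor. For Angpt2 the authors' means were 50.3 with bexarotene and 152 in control tumors, a ratio of 0.330, and the bexarotene mean lay within the range of V-125-treated tumors. Thbd was not listed for bexarotene, so its level there is not given. The log2 ratios of group means were 0.68 with V-125 and 0.43 with bexarotene for Epas1, and −1.31 and −1.60 for Angpt2. Doses and durations were the same, but both comparisons use the same control tumors, and no test of one agonist against the other was possible from means.

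The endothelial identity genes that were listed for V-125 mostly shared the direction of Epas1, not that of Angpt2. The gene lists were chosen with earlier results of these data known, so shares of lists here and below are a description only. Of 51 genes in a list of endothelial identity, which holds none of the 3, 18 (35.3%) were listed for V-125. All 1589 listed genes amount to 10.4% of the 15310 genes that the authors' adjustment was inferred to cover. That 10.4% is approximate, since 218 listed genes did not enter the inference and may lie outside the 15310. Of the 18 endothelial identity genes, means were higher in 16 and lower in 2, or 88.9% higher, while 51.4% of all listed genes were higher. The groups were separated upward in 12 of the 18 (66.7%), among them Selp with few reads, and in 21.1% of all listed genes. Only genes with higher means can be separated upward, so these shares in part repeat the direction. The median log2 ratio of means was 0.84 for these 18 genes and 0.36 over listed genes with counts in both groups. In edgeR no fitted gene of the list had an adjusted p-value under 0.05, but neither had any of the 1333 genes fitted.

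Receptors and surface proteins made up much of this list. Kdr, the main VEGF receptor of endothelium, had 735 ± 134 normalized counts with V-125 and 408 ± 108 in control tumors (SD, n = 4 each), without overlap. Ptprb, a phosphatase that restrains Tie2 signaling, had 394 ± 101 and 185 ± 73.2 (SD, n = 4 each), without overlap. Plvap, which forms the diaphragms of endothelial fenestrae and caveolae, had 1529.7 ± 259.5 and 906 ± 130.3 (SD, n = 4 each), again without overlap. These genes differed 1.80-fold, 2.13-fold and 1.69-fold. Robo4, Clec14a, Calcrl and the extracellular matrix protein Mmrn2 did not overlap either, at 1.42-fold, 1.79-fold, 1.83-fold and 1.52-fold higher means. Eng, a TGF-beta co-receptor, was 1.49-fold higher and Aplnr, the apelin receptor, 2.15-fold higher, both with overlapping groups.

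Among transcription factors and intracellular proteins of endothelium, Sox18 was 1.56-fold higher and Arhgef15, a guanine nucleotide exchange factor, 1.89-fold higher, without overlap. Shank3 and Ushbp1 were likewise separated, at 1.86-fold each. The secreted protein Egfl7 (1.57-fold) and the membrane protein Cyyr1 (2.27-fold) overlapped. Selp, the adhesion receptor P-selectin, had between 4.23 and 8.55 normalized counts with V-125 while its count was 0 in each of the control tumors, too few reads for a fold change. The exceptions were Grrp1, with 102 ± 37.0 against 262 ± 106 normalized counts (SD, n = 4 each) and every V-125-treated tumor below control, and Rhoj, a small GTPase of endothelium, with 341 ± 149.9 against 621 ± 144 (SD, n = 4 each) and overlap. The remaining 33 genes of the list, including Pecam1, Cdh5, Flt1, Tek, Tie1 and Erg, were not listed for V-125. Their direction is therefore not given.

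**Figure D3:**
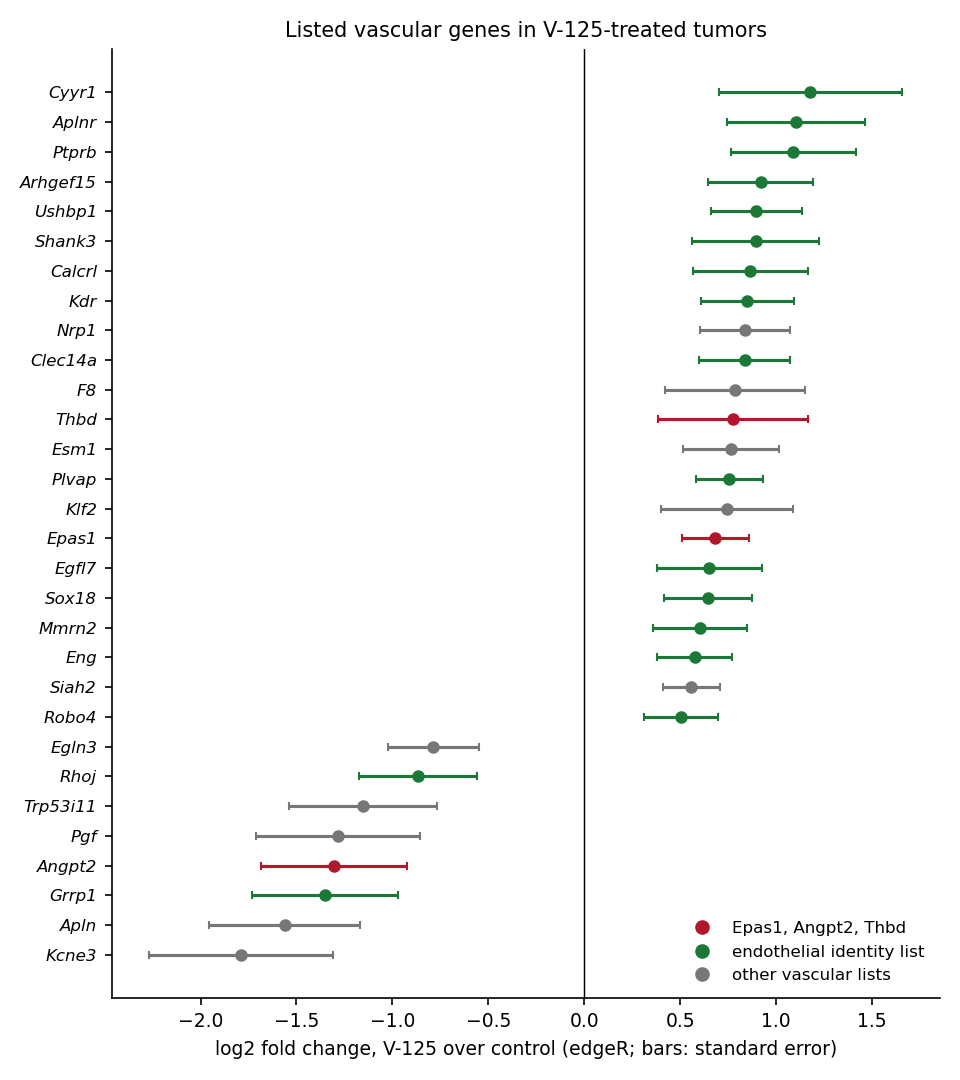
The edgeR log2 fold change of V-125 over control (horizontal axis, bars for the standard error) for Epas1, Angpt2, Thbd and the other listed genes of 6 vascular lists that passed the filter on low counts. Epas1 at 0.68 and Thbd at 0.78 stand among the endothelial identity genes in green, and Angpt2 at −1.31 stands near Grrp1, Pgf and Apln.

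Each gene was next set against the summed FPKM of the 18 listed endothelial identity genes. The sum was 128, 112, 109.7 and 92.1 with V-125, above the 72.1, 87.7, 72.4 and 84.2 of the control tumors. All 18 genes had been selected on their difference, and Plvap alone made up 35.8% of the total over tumors. Epas1 was 15.4 ± 1.57% of the sum with V-125 and 13.2 ± 2.08% in control tumors (SD, n = 4 each), with overlapping groups. Thbd was 2.06 ± 0.645% and 1.69 ± 0.550% (SD, n = 4 each), again overlapping. Angpt2 was 0.827 ± 0.157% of the sum with V-125 and 2.90 ± 1.15% in control tumors (SD, n = 4 each). Because the sum was higher and Angpt2 lower in every V-125-treated tumor, the Angpt2 shares had to be separated and the Epas1 and Thbd differences had to shrink, so these shares are a description only. Of 10 epithelial genes 2 (20%) were listed for V-125, Epcam and Cdh1, both with lower means. Epcam, an epithelial adhesion protein that marks the carcinoma cells, had 28485 to 34948 normalized counts with V-125 and 37941 to 53468 in control tumors, without overlap. The part of cell composition in the differences of Epas1, Angpt2 and Thbd was not tested.

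**Figure D4:**
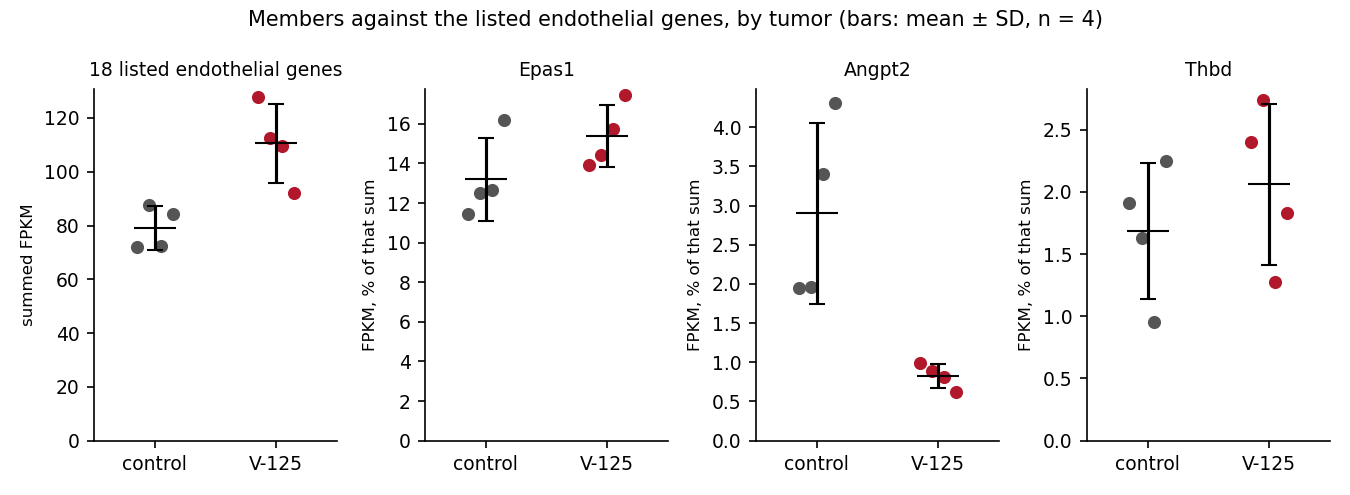
The summed FPKM of the 18 listed endothelial identity genes and the FPKM of Epas1, Angpt2 and Thbd as a percentage of that sum (vertical axes), with 1 point per tumor and bars for the mean ± SD in control and V-125-treated tumors. The sum is higher with V-125, the Epas1 and Thbd shares overlap between the groups, and the Angpt2 share is lower in all 4 V-125-treated tumors.

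In the angiopoietin and Tie pathway, a list of 9 genes, 2 (22.2%) were listed for V-125, Angpt2 lower and Ptprb higher. For bexarotene 4 (44.4%) were listed, with Ptprb higher at a mean of 302 against 184, and Angpt2, Angpt1 and Pdgfb lower. Here and for the lists below, the approximate shares over the genes that the authors' adjustment was inferred to cover were 10.4% for V-125 and 9.55% for bexarotene. Angpt1, the ligand that activates Tie2, had an authors' mean of 14.7 with bexarotene and 54.8 in control tumors. Pdgfb, which recruits pericytes, had 130.0 and 269.

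Of 10 VEGF ligands and receptors, 3 (30%) were listed for V-125. The receptors Kdr and Nrp1 were higher and did not overlap, and Nrp1 had 438 ± 86.6 normalized counts against 245 ± 54.9 (SD, n = 4 each). Pgf, the ligand placental growth factor, was lower at 66.6 ± 35.3 against 162 ± 55.3 (SD, n = 4 each), with overlap. For bexarotene Pgf had authors' means of 54.3 against 161, and Vegfd 25.4 against 2.86.

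Genes of tip cells and sprouting were split. Of 19, 6 (31.6%) were listed for V-125, with 3 higher and 3 lower. Esm1, a secreted proteoglycan of tip cells, had 365 ± 35.2 normalized counts against 215 ± 59.2 (SD, n = 4 each), without overlap, and Aplnr and Robo4 were higher as given above. Apln, the apelin ligand, had 71.4 ± 14.1 against 211 ± 117 (SD, n = 4 each), and Kcne3, a potassium channel subunit, 41.5 ± 22.5 against 143 ± 62.4 (SD, n = 4 each), both without overlap. Trp53i11 was lower, at a ratio of 0.449, with overlap. Apln and Trp53i11 were also listed for bexarotene, at ratios of 0.532 and 0.222.

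Around Thbd, a list of 24 genes of coagulation and its control had 4 members (16.7%) listed for V-125. Klf2, a transcription factor that induces Thbd under laminar flow, had 289 ± 124 normalized counts against 173 ± 58.0 (SD, n = 4 each). Coagulation factor VIII (F8) had 55.4 ± 14.0 against 32.1 ± 9.08 (SD, n = 4 each). F5, at 3.25 ± 2.22 against 17.9 ± 14.8 (SD, n = 4 each), was the only one with a lower mean. The groups of all 4 overlapped, Thbd included. For bexarotene 2 (8.33%) were listed, Klf4 at a ratio of 0.443 and F2rl1 at 0.582.

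Around Epas1, 3 of 14 hypoxia-inducible factors and regulators (21.4%) were listed for V-125, and Hif1a and Arnt were not among them. Egln3, an oxygen-dependent prolyl hydroxylase that marks HIF proteins for degradation, had 6732 ± 1925 normalized counts against 11608 ± 2247 (SD, n = 4 each), with overlap. Egln3 is also in the list of HIF target genes and is counted again among those with lower means below. Siah2, a ubiquitin ligase that acts on prolyl hydroxylases, had 790.2 ± 76.4 against 537 ± 36.5 (SD, n = 4 each), without overlap. Of 42 HIF target genes 16 were listed for V-125, 4 with higher and 12 with lower means, and 17 for bexarotene, 1 higher and 16 lower. With V-125 Mgarp, a mitochondrial protein, was at 0 reads in all 4 tumors and at 4.62 to 39.3 normalized counts in control tumors. Loxl2, a collagen cross-linking enzyme, had a ratio of means of 0.388, and Ppp1r3c, a regulator of glycogen synthesis, one of 2.70, both with overlap. Most listed HIF targets thus had lower means while Epas1 had a higher one, among genes of which 51.4% were higher with V-125 and 43.3% with bexarotene. The list was not divided by HIF protein, so it does not show the targets of HIF-2 alpha apart from the others.

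**Figure D5:**
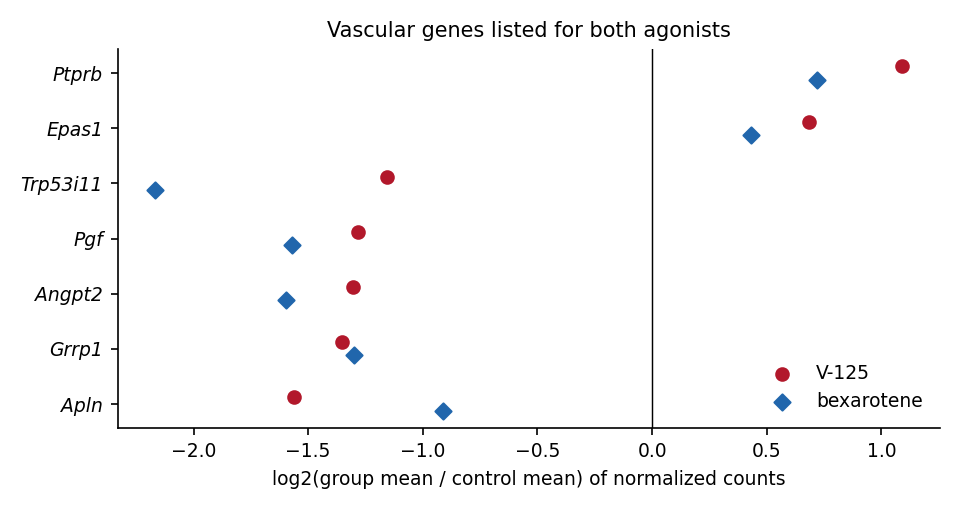
The log2 ratio of the group mean to the control mean (horizontal axis) for the vascular genes listed for both agonists, with circles for V-125 and diamonds for bexarotene. Ptprb and Epas1 lie to the right of 0 and Angpt2, Pgf, Grrp1, Apln and Trp53i11 to the left for either agonist, and the control tumors are the same in both.

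For bexarotene 3 of the 51 endothelial identity genes (5.88%) were listed, against about 9.55% of the genes that the authors' adjustment was inferred to cover. They were Ptprb at a ratio of 1.64, Grrp1 at 0.407 and Gpr4, a proton-sensing receptor, at 0.496. The authors' means do not allow a test of whether the endothelial genes differed between the agonists.

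Within the groups, the tumors of the 3 genes varied partly together. The measure was Pearson's r of the deviations of log2(normalized count + 1) from the group mean over 8 tumors, given as a description, in which the 2 group means have been removed. It was 0.68 for Epas1 and Angpt2, 0.44 for Epas1 and Thbd and 0.36 for Angpt2 and Thbd. Epas1 and Angpt2 therefore tended to be high in the same tumors of a group although the group means differed in opposite directions. Among 1371 other listed genes with a mean of at least 10 normalized counts, those most like Epas1 included Plxnd1, Sema6a, Cd109 and Zfp862-ps, with r from 0.94 to 0.91. For Angpt2 the 5 most alike were Cyp20a1, Espn, Ppp1r3e, Scn7a and Gm21718, with r from 0.89 to 0.85. For Thbd they were Galnt12, Kif1a, Sox18, Chst15 and Plekhb2, with r from 0.97 to 0.86. Among the 1371 genes, Angpt2 stood at place 104 and Thbd at place 314 in likeness to Epas1. In likeness to Angpt2, Epas1 stood at place 49 and Thbd at 323, and in likeness to Thbd, Epas1 at 257 and Angpt2 at 368. Many other listed genes were thus closer to a member than the other members were. Over 17 listed endothelial identity genes r ran from −0.50 to 0.82 for Epas1, from −0.22 to 0.81 for Angpt2 and from −0.54 to 0.87 for Thbd. Each r rests on 8 tumors that share library and depth across genes.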

How the data were processed

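The authors deposited, for V-125 against control, the read count of each listed gene in 8 tumors, normalized counts (a signal obtained by dividing by a size factor for each tumor) and FPKM. For bexarotene the authors' deposited group means of normalized counts were used. The submitters' processing notes name STAR 2.6.1d, featureCounts 1.5.0-p3 and limma, and the genome build is not given in the sources used here. Both tables also hold log2 fold changes, which were not used, and the authors' deposited p-values. These p-values served only to find that each listing stops at 0.05 and to infer how many genes the adjustment covered. The inferred number was the most common result over the genes used. It was 15310 for V-125, given by 45.7% of them, and 18687 for bexarotene, given by 35.3%. Listed genes with adjusted p-values at the upper limit, 218 for V-125 and 34 for bexarotene, did not enter.

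The 1589 genes of the V-125 table were tested on their counts in edgeR 4.0.16 (quasi-likelihood test after filterByExpr, 1333 genes, the authors' size factors) in R 4.3.3, with Benjamini-Hochberg adjustment over 15310 tests. The standard error is the absolute log2 fold change over the square root of F. Spread was estimated on selected genes only. The fits were tested on simulated data. Normalized counts of Epas1, Angpt2 and Thbd were compared by exact permutation tests over 70 assignments with scipy 1.17.1, without adjustment over the 3. DESeq2 1.42.0, limma 3.58.1, other scalings, filters, pseudocounts, a replicate block and leaving out each tumor were alternatives. The study's own test was limma on all genes, which a table of selected genes does not allow. The study assigned 4 mice to each diet and every library has its own title, so tumors were taken as separate animals. No 2 libraries of a group were alike within sampling noise.

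The members and the gene lists were chosen with earlier results of these data known. Genes named are the 3 members, the listed members of the 6 vascular lists and the 5 most similar genes per member, of which 1 is not reported here, and from the other lists at most 4 examples. Of the listed identifiers 1583 are in GENCODE M21, 1526 with identical coordinates.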

Additional observations from a re-analysis of the deposited data

Results flagged for a closer look

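Among 32 vascular genes in the V-125 table, examined in 2 groups of 4 tumors each, 4 values stood apart from the rest of their group by Dixon's 95% criterion, which flags about 5% of groups by chance. No value of Epas1, Angpt2 or Thbd was among them. V-125 replicate 1 was high for Klf2, at 473 normalized counts with the next tumor at 243, and for Egfl7, at 597 with the next at 365. V-125 replicate 2 was high for Ptprb, at 545 with the next at 357. Control replicate 1 was low for Arhgef15, at 55.3 with the next at 85.5.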

How the results depend on the processing

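For Epas1, Angpt2 and Thbd each of 17 alternatives kept the direction of the log2 fold change, and no adjusted p-value passed 0.05 under any of them. Log2 fold changes ran from 0.58 to 0.84 for Epas1, from −1.49 to −0.74 for Angpt2 and from 0.48 to 0.99 for Thbd, and adjusted p-values from 0.0561, 0.0883 and 0.618, all from DESeq2, up to 1. The value of −0.74 for Angpt2 came both from limma on log2(FPKM + 1), where the pseudocount is large beside its level, and from leaving out the deeper control libraries. Leaving out each tumor in turn gave 0.58 to 0.84, −1.49 to −0.999 and 0.56 to 0.99. Replicate numbers are shared between the groups but no label ties them to a shared mouse or day, and the deviations of tumors with the same number had correlations of 0.089, −0.054, −0.17 and 0.043. With the number as a replicate block the log2 fold changes were 0.71, −1.25 and 0.78, and no call changed. The exact permutation p-values were the same on log2 normalized counts and on FPKM.

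The number of listed genes whose groups do not overlap was 614, and 704 to 855 with 1 tumor left out. Without the deeper control libraries, leaving 2 control tumors, it was 1044. Leaving tumors out can only raise this number. The numbers of endothelial identity genes with higher and lower means, 16 and 2, did not change when any 1 tumor was left out, and a filter on low counts removed Selp. Depth limits Angpt2, at 36 to 283 reads per tumor, and Thbd, at 58 to 219.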

Other observations

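Of 15 genes of pericytes and vascular smooth muscle, 3 were listed for V-125, with Acta2 at a ratio of 0.378 and Mcam at 0.672, both overlapping, and Vtn at 3.13 without overlap. For bexarotene 5 were listed, 4 lower and 1 higher. None of 7 lymphatic endothelial, 8 fibroblast or 6 platelet genes was listed for either agonist.

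Of 12 macrophage and monocyte genes, 2 (16.7%) were listed for V-125, 1 higher and 1 lower, and 5 (41.7%) for bexarotene, all lower. Of 7 dendritic cell genes 1 was listed for bexarotene as lower, of 8 adipocyte genes 1 was listed for bexarotene as higher, and of 8 lymphocyte genes 1, Cd2, was listed for V-125 as higher. Of 10 epithelial genes 2 (20%), Krt8 and Krt18, were listed for bexarotene, both lower.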
